A study of Homo sapiens with 3 samples.

Results

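The 10 keratin genes described here were examined for peaks of BRG1, the catalytic ATPase of the SWI/SNF remodelling complex, which moves nucleosomes to open or close DNA. The cells were wild-type 12Z, an immortal epithelial line derived from human endometriosis. The genes were KRT7, KRT8, KRT18, KRT19, KRT80, KRT86, KRT79, KRT38, KRT5 and KRT6A, which are 10 of 54 human keratin genes and 10 of 19974 protein-coding genes on chromosomes 1 to 22 and X. A peak belonged to a gene when its midpoint lay in the gene body, or within 100 kb of it with that gene as the nearest protein-coding gene. The genes were selected on shared peaks already seen near most of them in these lists, so counts over them are descriptions and no test was run. Chromatin of unperturbed cells was immunoprecipitated with an antibody to BRG1 in 2 libraries (replicates 1 and 2), and 1 input library was made without antibody, for which no peak list was analysed here. Nothing in the labels says that the replicates came from separate cultures, so their agreement may be technical. No second condition was studied, and the peak lists hold no measure of keratin expression.

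Keratins are the intermediate filament proteins of epithelial cells. A type I and a type II keratin pair to build each filament, and the pair in use changes with the kind of epithelium. KRT8 and KRT18 form the pair of simple, single-layered epithelia, with KRT7 and KRT19 added in glandular and ductal epithelia such as the endometrium. KRT5 belongs to the basal cells of layered epithelia, KRT6A to activated and regenerating epidermis, and KRT86 and KRT38 to the hard keratins of hair. In the human genome the type II genes lie together on chromosome 12 with 1 type I gene, KRT18, at the end of the cluster, and the other type I genes lie together on chromosome 17.

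The replicate 1 list held 17323 peaks on chromosomes 1 to 22 and X, the replicate 2 list 10082, and the authors' overlap list 6293, here called shared peaks. For each peak the authors give a fold enrichment over background and the −log10 of a q-value, so that a −log10 q of 2 stands for a q of 0.01. Peak positions are those of the authors' files, on build GRCh38.p12 per the submitters' processing notes. The lists give no read counts, so the depth behind a peak is unknown, and a gene with no peak had none detectable at this depth.

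Shared peaks lay at KRT8, KRT18, KRT7, KRT80, KRT86, KRT79 and KRT38. These 7 of the 10 genes held 10 shared peaks, with 3 at KRT8, 2 at KRT80 and 1 at each of the others. KRT19 and KRT6A had 1 peak each in replicate 1 and none in replicate 2, and KRT5 had no peak in any list. Over all protein-coding genes, 9.67% had a shared peak by the same rule, 3.27% had 2 or more and 1.40% had 3 or more. In single libraries, 8 of the 10 genes had a peak in replicate 1 and 6 in replicate 2, against 20.2% and 11.5% of all genes. Since the genes were picked for such peaks, nothing is read from these differences.

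**Figure D1:**
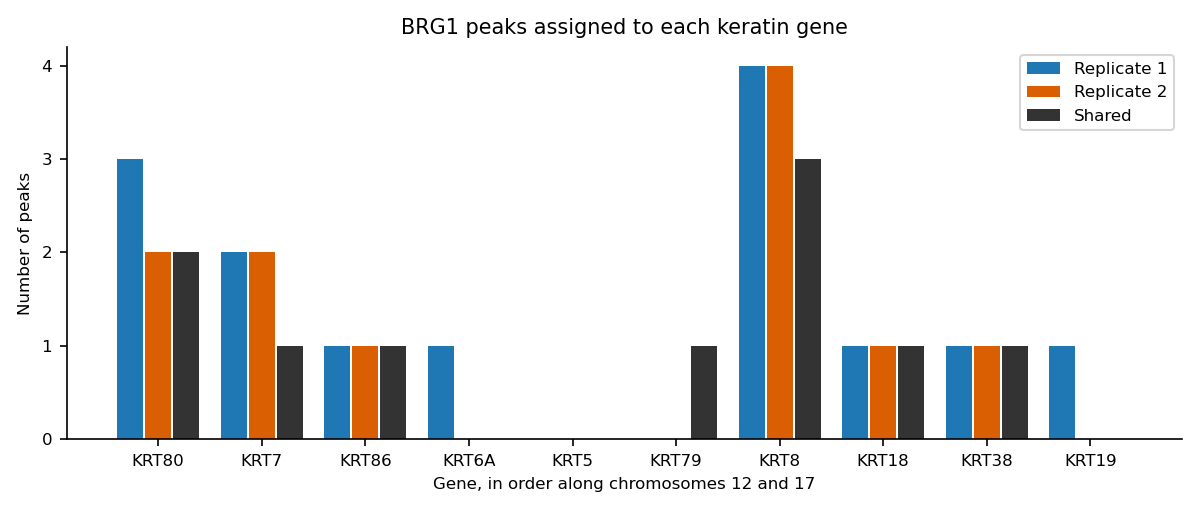
Number of peaks assigned to each of the 10 keratin genes in replicate 1, replicate 2 and the shared list, with genes in order along chromosome 12 (KRT80 to KRT18) and chromosome 17 (KRT38 and KRT19). KRT8 has 4, 4 and 3 peaks, KRT5 has none, and KRT79 has a peak in the shared list alone, since the replicate peaks beneath it are nearer to KRT78.

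At KRT8, the main type II keratin of simple epithelia, 2 shared peaks lay inside the gene body and 1 lay 22.8 kb outside it. The widest ran from 52924228 to 52927589 on chromosome 12. It spanned 3362 bp, at the 96.9th percentile of width among shared peaks, and had a fold of 3.68. In replicate 1 the same stretch was 1 peak of 3364 bp with a fold of 3.95. In replicate 2 it was 2 separate peaks, of 588 bp with a fold of 4.38 and of 158 bp with a fold of 3.58. The replicates thus placed signal within the same stretch but differed in how much of it they called. The narrower replicate 2 peaks covered 22.2% of the shared peak.

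The widest KRT8 peak covered an annotated transcription start of KRT8. RefSeq promoters, from 250 bases before to 50 bases after a start, were at hand for 4 of the 10 genes, and they are shown because they separate a start under a peak (KRT8) from starts with a shared peak upstream (KRT79, KRT38) and a start with none near (KRT5). The KRT8 promoter is chr12:52926420-52926719, the KRT79 promoter chr12:52834262-52834561, the KRT38 promoter chr17:41440934-41441233 and the KRT5 promoter chr12:52520345-52520644, all GRCh38.p14 and all on the minus strand. They are written 5′ to 3′ in the direction of the gene, and capitals mark matches to the motifs searched.
KRT8: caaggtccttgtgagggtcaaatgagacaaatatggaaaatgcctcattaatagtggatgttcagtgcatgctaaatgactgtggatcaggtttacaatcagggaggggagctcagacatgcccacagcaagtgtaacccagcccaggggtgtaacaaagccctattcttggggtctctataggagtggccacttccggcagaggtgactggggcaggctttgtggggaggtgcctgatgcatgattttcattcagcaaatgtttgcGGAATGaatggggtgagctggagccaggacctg
KRT79: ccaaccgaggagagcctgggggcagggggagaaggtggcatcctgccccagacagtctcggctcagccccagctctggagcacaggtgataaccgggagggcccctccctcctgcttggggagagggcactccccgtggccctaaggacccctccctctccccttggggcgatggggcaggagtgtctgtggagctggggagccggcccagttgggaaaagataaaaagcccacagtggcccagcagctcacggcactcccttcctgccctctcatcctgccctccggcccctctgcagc
KRT38: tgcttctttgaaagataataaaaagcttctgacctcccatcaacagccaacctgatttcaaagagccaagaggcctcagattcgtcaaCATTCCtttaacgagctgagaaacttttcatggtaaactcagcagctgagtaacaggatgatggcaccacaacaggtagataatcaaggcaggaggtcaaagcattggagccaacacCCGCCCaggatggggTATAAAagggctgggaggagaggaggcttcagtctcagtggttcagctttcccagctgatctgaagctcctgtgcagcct
KRT5: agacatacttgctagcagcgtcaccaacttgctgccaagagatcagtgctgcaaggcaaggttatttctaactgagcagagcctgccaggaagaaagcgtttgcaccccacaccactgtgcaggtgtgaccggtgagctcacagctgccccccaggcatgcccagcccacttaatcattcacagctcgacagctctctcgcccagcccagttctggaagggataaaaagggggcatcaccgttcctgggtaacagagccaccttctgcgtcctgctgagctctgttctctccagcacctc

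All 300 bases of the KRT8 promoter lay under the shared peak and under the replicate 1 peak, and none lay under a replicate 2 peak. The replicate 2 peaks flanked it, the nearest edge 0.610 kb upstream. A shared peak touched 275 of 34961 promoters of this length (0.787%). KRT8 has further annotated starts, because its gene body extends upstream of this one as far as KRT18, and promoters for those starts were not used. The body also extends downstream of this start, and starts on that side were not examined. The start shown here therefore need not be the main start of KRT8. For KRT79 the nearest shared peak lay 1.22 kb upstream of the promoter window, and for KRT38 it lay 4.71 kb upstream. For KRT5 the nearest lay 239 kb away on the downstream side.

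**Figure D2:**
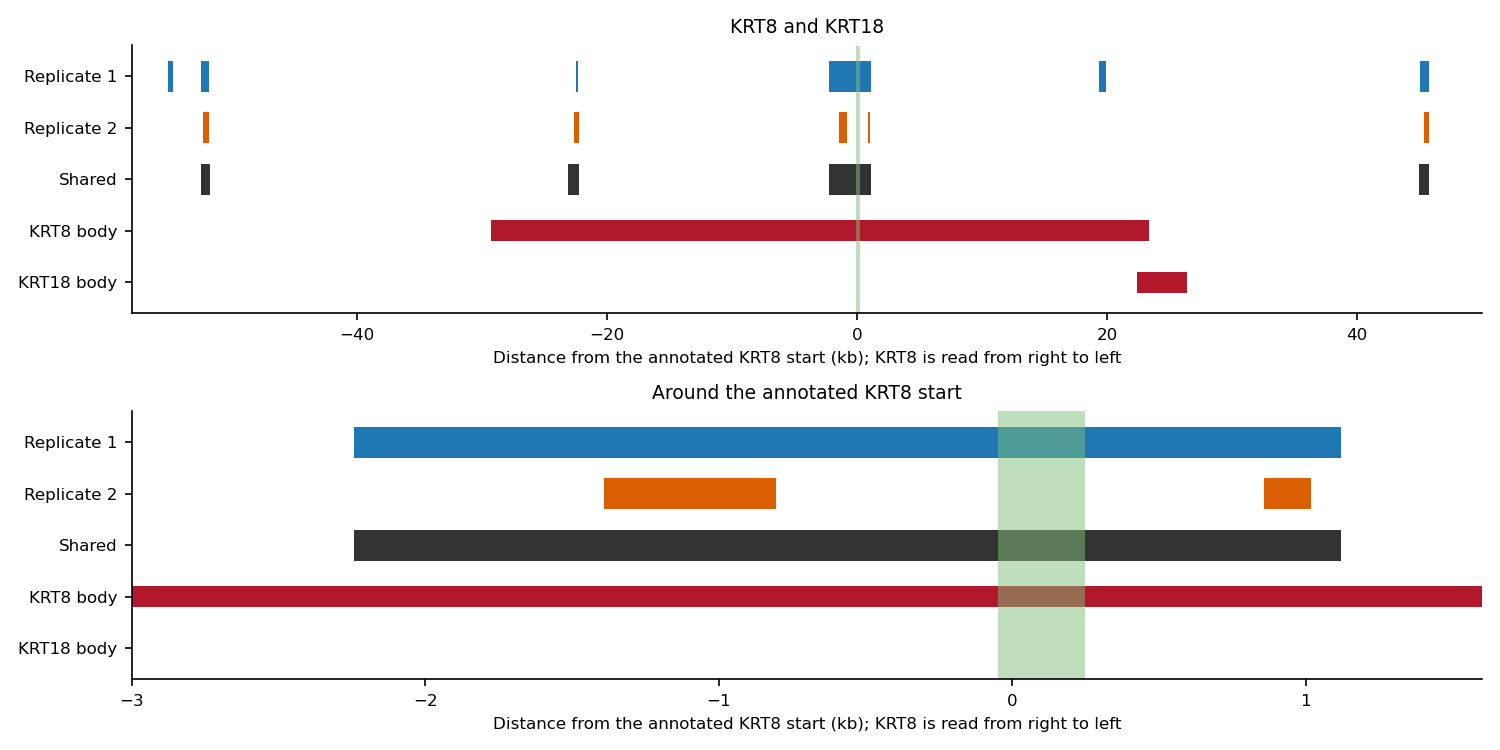
Peaks drawn to their width around KRT8 and KRT18 (top) and around the annotated KRT8 start (bottom), against distance from that start in kb; red boxes are gene bodies and the green band is the promoter window of 300 bases. The shared and replicate 1 peaks cover the window, and the 2 replicate 2 peaks lie on either side of it.

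Motifs were searched on both strands in these promoters: the TEAD motif GGAATG, the AP-1 motif TGANTCA, the TATA box TATAAA and the GC box GGGCGG, none of whose matches overlapped. KRT8 had 1 match, to the TEAD motif, at bases 18 to 23 counted from the start as base 1. KRT38 had 3 matches, to the TEAD motif on the opposite strand 162 to 157 bases upstream, to the GC box on the opposite strand 45 to 40 bases upstream and to the TATA box 30 to 25 bases upstream. KRT79 and KRT5 had no match, which says only that these letters are not in these windows. Of 35116 promoters of this length, 14.0% held the TEAD motif, 7.71% the AP-1 motif, 11.5% the TATA box and 45.0% the GC box. The G and C content was 50.7% in KRT8, 48.3% in KRT38, 56.3% in KRT5 and 67.3% in KRT79, around a median of 58.7% over all promoters.

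The other shared peak inside KRT8, at 52903390 to 52904234, was the weakest of the 10 by mean rank in the replicates. Its folds were 3.23 in replicate 1 and 3.42 in replicate 2, at the 17.9th and 28.3rd percentiles of the lists. Its −log10 q was 1.59 and 1.64, below 2 in both. The distal peak, at 52874012 to 52874689, had folds of 4.01 in replicate 1 and 4.13 in replicate 2 and a −log10 q of 2.89 and 2.78. The replicate 2 peak lay wholly inside the replicate 1 peak. The shared peak lay 2.52 kb nearer to KRT8 than to KRT78, a type II keratin on its other side.

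KRT18, the type I partner of KRT8, had 1 shared peak, 18.9 kb beyond its body on the side away from KRT8. The annotated body of KRT8 extends as far as KRT18, and the peak lay 3046 bases nearer to KRT18 than to KRT8. It was counted for KRT18 by that margin and is not tied to either gene. The peak ran from 52971459 to 52972250. Its folds were 4.64 in replicate 1 and 4.10 in replicate 2, at the 97.5th and 81.1st percentiles, and its −log10 q was 4.79 and 2.85. Replicate 1 had a further peak at 52945851 to 52946429, with a fold of 4.35 and a −log10 q of 3.80, where the annotated bodies of KRT8 and KRT18 come together. That peak lay inside the KRT8 body and 2.72 kb from KRT18, and no replicate 2 peak overlapped it. By fold it stood at the 94.1st percentile of replicate 1, above 7 of the 10 replicate 1 peaks that lie under shared peaks of these genes. KRT8 and KRT18 together accounted for 4 of the 10 shared peaks, across a stretch in which no other protein-coding gene lies.

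KRT7, a type II keratin of glandular epithelia that is used as a marker of endometrial epithelium, had 1 shared peak 2.62 kb outside its body, at 52230044 to 52231195 on chromosome 12. It overlapped the pseudogene TMT1AP1. The folds were 3.69 in replicate 1 and 3.75 in replicate 2, and the −log10 q values 2.23 and 1.87. Replicate 1 called 1143 bp there and replicate 2 called 373 bp, all of it inside the replicate 1 peak. Each library also had 1 KRT7 peak that the other lacked. Replicate 1 had one inside the gene at 52244025 to 52244280, with a fold of 3.56, and replicate 2 had one 17.5 kb outside it at 52215655 to 52215842, with a fold of 3.84.

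KRT19, a type I keratin of simple and ductal epithelia, lies in the chromosome 17 cluster. Its only peak was in replicate 1, at 41530012 to 41530397, 1.90 kb outside the gene, with a fold of 3.42 and a −log10 q of 1.81. The fold lay at the 35.6th percentile of that list, and replicate 2 had no peak there. Of the keratins known from simple epithelia (KRT7, KRT8, KRT18, KRT19 and KRT20), 3 of 5 had a shared peak, beside 9.67% of all genes, and KRT20 had no peak in any list. All but KRT20 are among the genes selected on such peaks, so nothing is read from that count.

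KRT80, a type II keratin found in many epithelia, had the shared peak of highest mean fold rank over both replicates. That peak, at 52147211 to 52148275 on chromosome 12, lay 21.3 kb outside the gene. Its folds were 4.91 in replicate 1 and 4.17 in replicate 2, at the 98.9th and 84.5th percentiles, and its −log10 q was 5.67 and 3.09. It was the only peak of the 10 genes to reach a −log10 q of 5 in a replicate, and it did so in replicate 1 alone. The second KRT80 peak, at 52191946 to 52192796, crossed the end of the gene body that faces KRT7. It had folds of 4.51 in replicate 1 and 3.92 in replicate 2 and a −log10 q of 4.21 and 2.60. Replicate 1 had a further narrow peak of 103 bp inside the gene, at 52190970 to 52191072, with a fold of 3.38 and no counterpart in replicate 2.

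KRT86, a hair keratin, had 1 shared peak inside its annotated body at 52280057 to 52281382. Its folds were 4.06 in replicate 1 and 3.84 in replicate 2, with a −log10 q of 2.72 and 2.00. The peak lay 5.19 kb from KRT81, a hair keratin whose body is nested in the annotation of KRT86, so a peak in the KRT86 body is not tied to either gene. KRT79, a type II keratin of hair follicle and sebaceous duct in the mouse, had 1 shared peak by a margin of 4 bases. Its midpoint lay 1.74 kb from KRT79 and 1.75 kb from KRT78, and both replicate peaks beneath it were nearer to KRT78. The peak, at 52835779 to 52836332, had folds of 3.75 in replicate 1 and 3.76 in replicate 2 and a −log10 q of 2.46 and 2.17. It is best described as lying between the 2 genes.

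KRT38, a type I hair keratin on chromosome 17, had 1 shared peak at 41445942 to 41447477, which lay 5.73 kb outside the gene. The folds were 3.92 in replicate 1 and 3.50 in replicate 2, with a −log10 q of 2.54 and 1.49. The replicate peaks did not meet. They lay 164 bases apart within the span of the shared peak, the replicate 1 peak at 41446731 to 41447456 and the replicate 2 peak at 41446326 to 41446566. For the other 9 shared peaks the replicate peaks overlapped each other, by 89 to 749 bp.

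KRT5, the type II keratin of basal epithelial cells, and KRT6A, a type II keratin of activated epidermis, lie in the middle of the chromosome 12 cluster. KRT6A had 1 peak, in replicate 1, at 52496677 to 52496921, which lay 3.54 kb outside the gene with a fold of 3.82 and a −log10 q of 2.18. KRT5 had none.

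Along chromosome 12 the shared peaks fell into a group at each end of the keratin cluster. The first 4, at KRT80, KRT7 and KRT86, were 37.2 to 48.9 kb apart, and the last 5, at KRT79, KRT8 and KRT18, were 20.0 to 43.9 kb apart. Between the groups lay 554 kb without a shared peak, which held 21 protein-coding gene bodies. Replicate 1 had 3 peaks in that stretch and replicate 2 had none. From KRT80 to KRT18 the cluster spans 784 kb and held 7 shared peaks, or 8.93 per Mb, against 1.74 per Mb over chromosome 12. The first KRT80 peak and the KRT18 peak lay beyond these end genes and were not counted in it. Replicate 1 alone gave 17.9 per Mb in the cluster and 5.54 over the chromosome, and replicate 2 alone gave 11.5 and 2.63. The cluster was described because its genes had peaks, and no test was made of its density. The genes at both ends were likewise chosen for their peaks, so nothing is read from the gap between them.

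**Figure D3:**
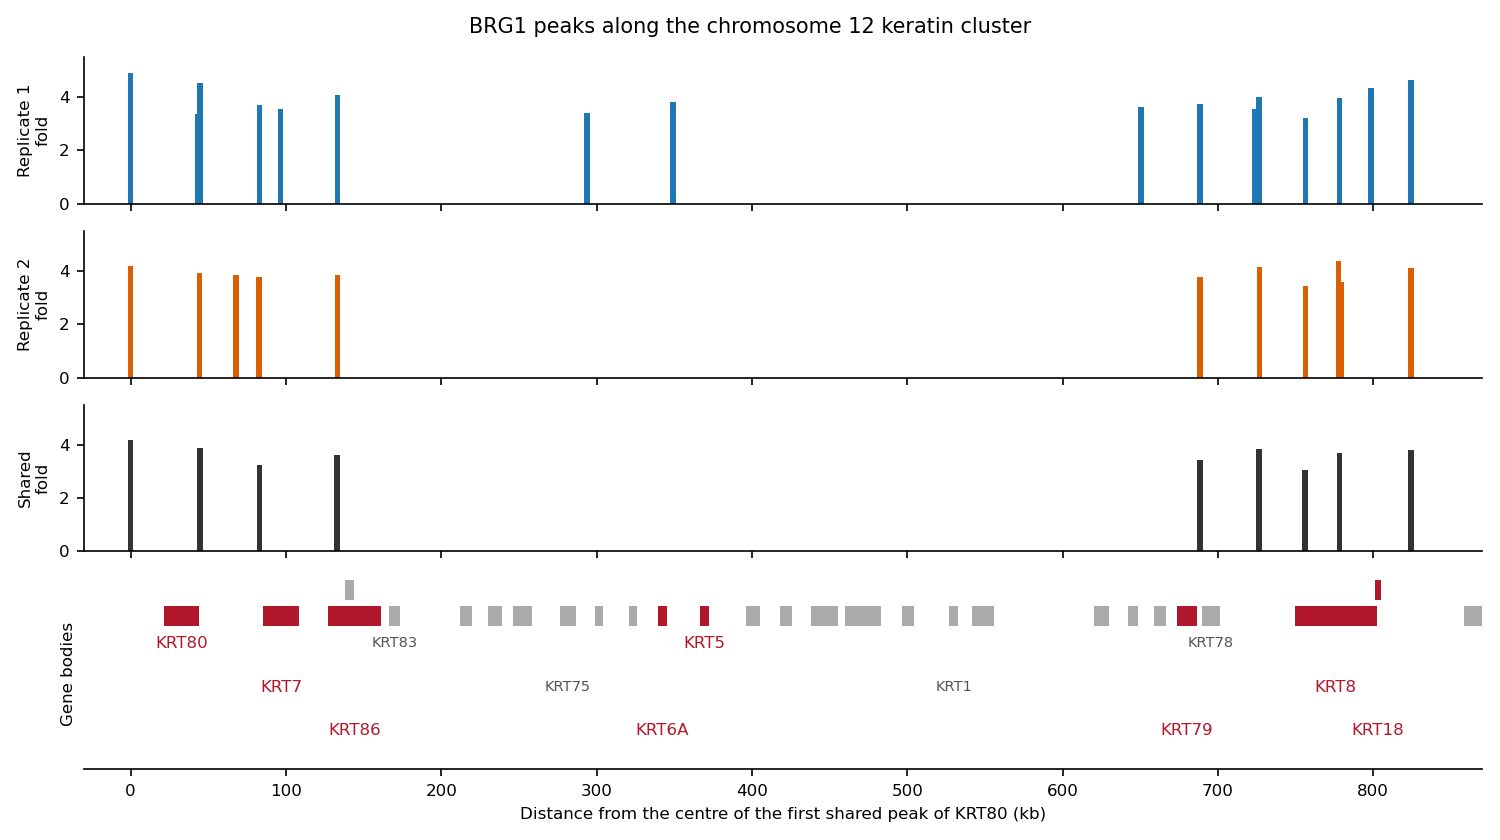
Fold enrichment of each peak (bars) in replicate 1, replicate 2 and the shared list along the chromosome 12 keratin cluster, against distance in kb from the centre of the first KRT80 peak, with gene bodies below (red, the keratins described here; grey, other protein-coding genes). Shared peaks stand at both ends, with 554 kb between them that has 3 replicate 1 peaks and no replicate 2 peak.

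The other 44 keratin genes had no shared peak. Among them 7 had a peak in replicate 1 and 1, KRT78, had a peak in replicate 2. The replicate 2 peak of KRT78 and 1 of its 2 replicate 1 peaks lie under the shared peak described at KRT79. In replicate 1, KRT6B, KRT3, KRT23, KRT33B and KRT32 had 1 peak each and KRT9 and KRT78 had 2 each. KRT32, a type I hair keratin, had the one of highest fold, 4.20, inside its body at 41464892 to 41465153 with a −log10 q of 3.35. Taking all keratins, 7 of 54 (13.0%) had a shared peak, beside 9.67% of all genes. By type the counts were 5 of 26 type II keratins (19.2%) and 2 of 28 type I keratins (7.14%). In replicate 1 alone 15 keratins had a peak (27.8%, beside 20.2% of all genes), and in replicate 2 alone 7 had one (13.0%, beside 11.5%). Over the whole family the shares stood closer to the background than over the 10 genes chosen. That was largely fixed by the choice of those genes for their peaks, so nothing is read from it.

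On chromosome 17 the cluster from KRT24 to KRT17 spans 927 kb with 27 keratins. It held 1 shared peak, that of KRT38, or 1.08 per Mb, against 3.0 per Mb over the chromosome. Replicate 2 also had 1 peak there, or 1.08 per Mb, against 4.48 over the chromosome. Replicate 1 had 9, or 9.71 per Mb, against 7.16 over the chromosome. The cluster thus stood below its chromosome in replicate 2 and above it in replicate 1. The replicate 2 figure rests on 1 peak, no test was made of these densities, and nothing is read from them.

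**Figure D4:**
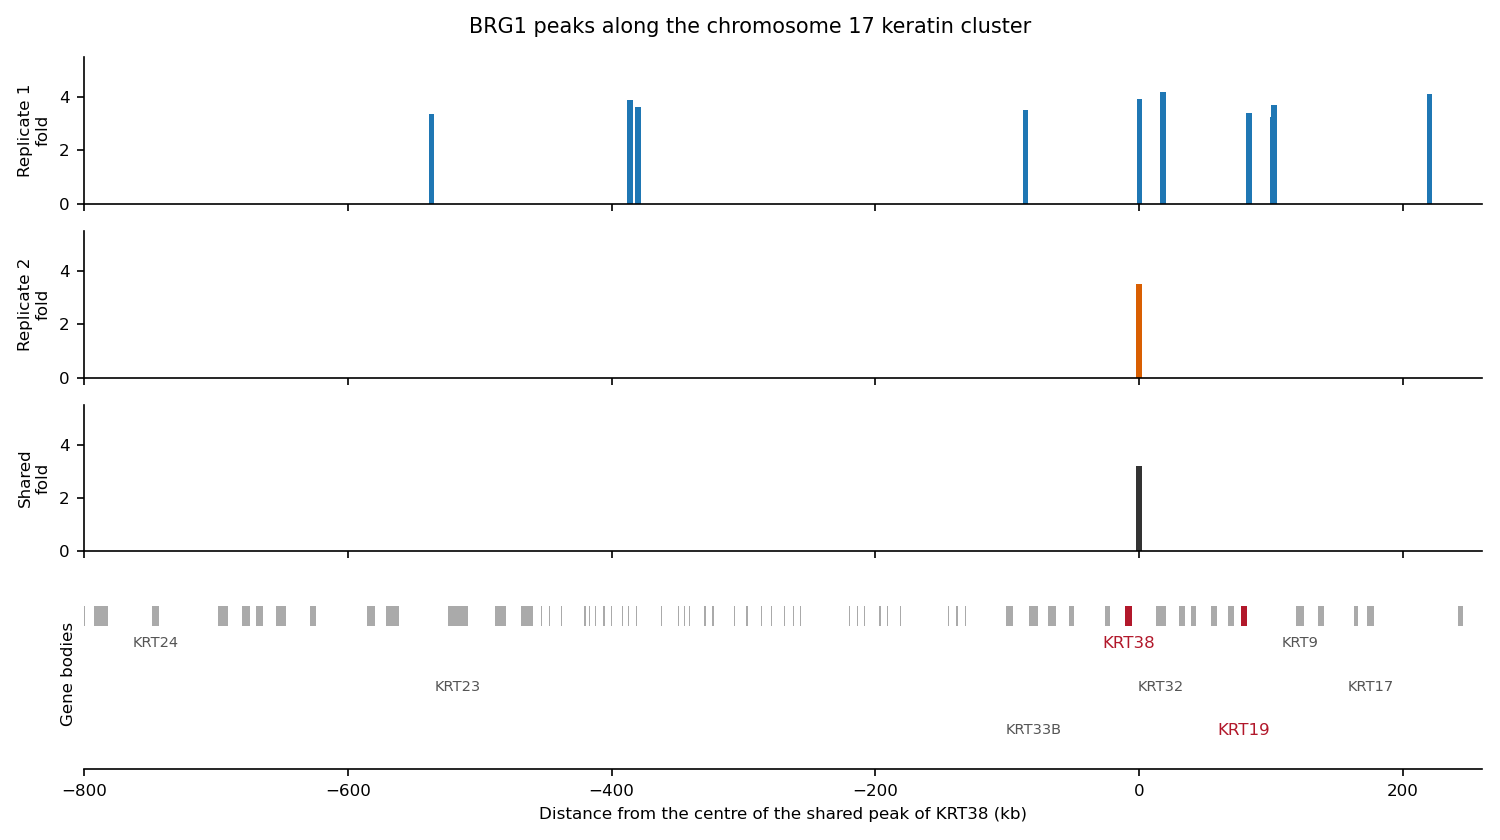
Fold enrichment of each peak (bars) in replicate 1, replicate 2 and the shared list along the chromosome 17 keratin cluster, against distance in kb from the centre of the KRT38 peak, with gene bodies below (red, KRT38 and KRT19; grey, other protein-coding genes). Replicate 1 has peaks along much of the cluster, while replicate 2 and the shared list have 1 each, at KRT38.

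Across their 10 shared peaks, the keratin genes had a median fold of 3.64 (range 3.04 to 4.18), against 3.33 over all 6293 shared peaks. The median −log10 q was 3.99, against 3.70. The median width was 958 bp, against 926 bp. Ranked within the replicate lists, the keratin peaks had a median mean percentile of 79.0 by fold, against 60.6 for all shared peaks, and 7 of 10 were above 60.6. By fold in replicate 1 alone the medians were 83.4 for the keratin peaks and 61.1 for all shared peaks. In replicate 2 alone they were closer, at 66.4 and 58.7. Ranked by −log10 p, the medians were 67.6 for the keratin peaks and 60.8 for all shared peaks, and 5 of 10 were above 60.8. In replicate 1 alone the medians by −log10 p were 75.7 and 68.9, and in replicate 2 alone both were 58.5. The genes were picked for their peaks, so nothing is read from the distance between these medians. Folds were higher in replicate 1 at 5 peaks and higher in replicate 2 at 5, while the highest −log10 q was in replicate 1 at 8 of the 10. The median fold over all peaks was 3.53 in replicate 1 and 3.71 in replicate 2, so nothing is read from these counts.

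**Figure D5:**
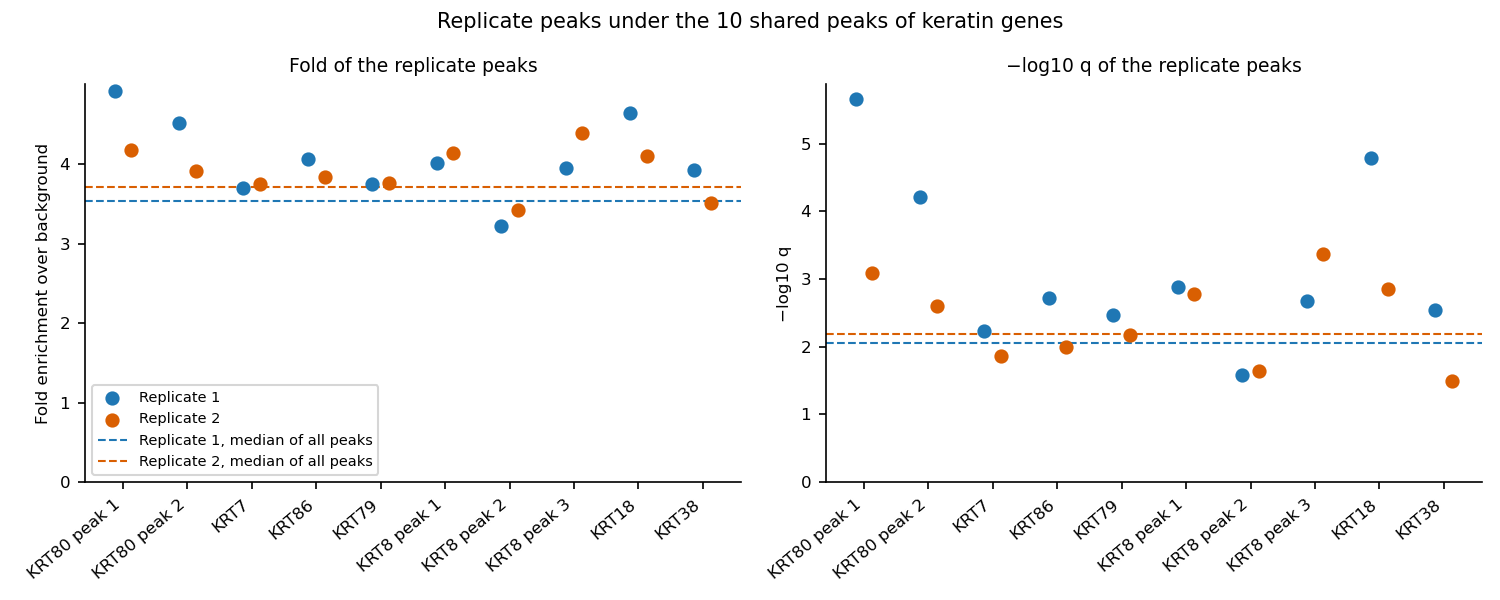
Fold enrichment (left) and −log10 q (right) of the replicate peak of highest fold beneath each of the 10 shared peaks, in order along chromosome 12 and then chromosome 17, with dashed lines at the median of all peaks of each replicate. KRT80 peak 1 has the highest values in replicate 1 (fold 4.91, −log10 q 5.67), and KRT8 peak 2 lies below the medians in both replicates.

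Few shared peaks of any gene were strong in both libraries. Of all 6293 shared peaks, 242 (3.85%) reached a −log10 q of 5 in both replicates, and 0 of the 10 keratin peaks did, so the keratin count is near that share. Over all genes, 0.125% had such a peak. At a −log10 q of 2 in both, 7 of the 10 keratin peaks remained, beside 3548 of all shared peaks (56.4%), and 5 of the 10 genes remained, beside 6.08% of all genes. The genes that dropped out there were KRT7 and KRT38, and KRT8 kept 2 of its 3 peaks. KRT86 stayed with 2.00 in replicate 2, at the edge of that threshold.

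Of the 14 replicate 1 peaks of the 10 genes, 8 (57.1%) overlapped a replicate 2 peak, and 36.6% of all replicate 1 peaks did. Of the 11 replicate 2 peaks, 9 (81.8%) overlapped a replicate 1 peak, and 63.9% of all replicate 2 peaks did. Since the genes were selected on peaks found in both libraries, high shares were largely fixed by that choice, and nothing is read from their distance to the shares of all peaks. When 50% of both peaks had to overlap, 4 of 14 (28.6%) and 4 of 11 (36.4%) did, beside 18.6% and 32.0% of all peaks.

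Genes that act with keratins were listed by name. Of 14 genes for proteins that bind keratin filaments, 5 (35.7%) had a shared peak, beside 9.67% of all protein-coding genes. The list was drawn up with earlier results of these data known, as were those of the other filament and transcription factor genes, and nothing particular to a list is read from its count. DST, a plakin that ties filaments to hemidesmosomes, had 9, the one of highest rank at 56938345 to 56939486 on chromosome 6 with folds of 4.71 in replicate 1 and 4.87 in replicate 2. PLEC, the plakin plectin, had 3, with folds of 4.28 and 4.82 at the top peak. FLG, which encodes the filament-aggregating protein filaggrin, had 1, with folds of 4.07 and 4.09, and PPL, the plakin periplakin, had 1, with folds of 3.71 and 4.30. PKP2, a desmosomal plaque gene, had 2. DSP, which encodes the desmosomal anchor of keratin filaments, had none in any list. DST is a long gene, and these counts were not set against gene length.

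Of 15 other intermediate filament genes, 2 (13.3%) had a shared peak, which is near the 9.67% of all genes. SYNM, the synemin gene, had 1 inside its body at 99123692 to 99124182 on chromosome 15, with folds of 4.73 in replicate 1 and 4.22 in replicate 2. LMNA, the nuclear lamin A and C gene, had 1, with folds of 4.22 and 4.20. VIM, the vimentin gene of mesenchymal cells, had 3 peaks in replicate 1, 1 in replicate 2 and none in the shared list.

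Of 12 transcription factor genes known to act on keratin genes, 4 (33.3%) had a shared peak, beside 9.67% of all genes. TFAP2A, an AP-2 factor of surface epithelia, had 5, the top one 32.3 kb outside the gene at 10451438 to 10452479 on chromosome 6 with folds of 4.85 in replicate 1 and 5.70 in replicate 2. EHF, an epithelial ETS factor, had 2, CEBPB, a C/EBP factor, had 2 and GRHL2, a grainyhead factor of epithelial cells, had 1. TP63, KLF5, GRHL3, TFAP2C and ELF3 had 1 peak each in replicate 1 alone. With the list of replicate 1 alone, the counts were 8 of 14 binders, 7 of 15 filament genes and 9 of 12 factors, beside 20.2% of all genes. With that of replicate 2 alone they were 5, 4 and 4, beside 11.5%.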

How the data were processed

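BRG1 ChIP-seq peaks of wild-type 12Z cells were read from 3 deposited broad peak lists, of replicate 1, of replicate 2 and of their overlap. The submitters' processing notes name MACS2, bedtools, Bowtie2, Picard, SAMtools, cutadapt and Trim Galore, with GRCh38.p12 as build. Their versions and settings, and whether reads were pooled for the overlap list, are not given here by any source. The authors' fold enrichment is a ratio per peak, and the authors' −log10 p-value and q-value belong to each peak, so peaks were ranked or filtered by them only against peaks of the same list. The counts of shared peaks with the higher fold or −log10 q in a replicate are the exception, since they compare raw values between lists. The deposited score column was not used. A percentile is the share of peaks in the same list with a value no higher.

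Gene names, bodies and neighbours came from a RefSeq table of GRCh38.p14, whose coordinates are not printed, and all symbols of the 54 keratins and of the 3 other lists matched. Promoter sequences are from RefSeq, GRCh38.p14. Distances take the chromosome coordinates of both patch releases as the same. A peak inside overlapping gene bodies counted for each gene and once as a peak. Replicate peaks were matched at 1 bp or more. The members, lists and motifs were chosen with earlier results of these data known, so no test was run. Genes named are the 10 members, keratins with peaks, genes holding or adjoining member peaks and up to 4 genes per list with a shared peak, in order of mean fold percentile. PKP2, VIM, DSP and genes with peaks in 1 replicate alone were named after their values were seen. The assignment of peaks was tested on simulated data. Analyses used Python 3.11.15, numpy 2.4.6, pandas 2.3.3, scipy 1.17.1 and matplotlib 3.10.9.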

Additional observations from a re-analysis of the deposited data

How the results depend on the processing

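Counts for the 10 keratin genes did not change with a domain limit of 50 kb or 1 Mb or with any base of a peak in place of its midpoint. At a −log10 q of 5 in both replicates, the genes with a shared peak numbered 0 among the 10 keratins, 0 among all keratins, 0 in each of the 3 other lists and 25 among all genes, and 0 shared peaks remained at the 10 keratins. At a −log10 q of 2 in both, all genes with a shared peak numbered 1214, against 1932 at any q. With an overlap of 50% required of both peaks, the shares found in the other replicate were 28.6% for replicate 1 and 36.4% for replicate 2.

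Without replicate 1 or without replicate 2, that is with the list of the other replicate alone, the 10 genes gave 6 to 8 with a peak and 11 to 14 peaks. All keratins gave 7 to 15 genes, all genes 2290 to 4033, filament binders 5 to 8, other intermediate filament genes 4 to 7 and transcription factors 4 to 9. The median fold percentile was 66.4 to 83.4. The density was 11.5 to 17.9 peaks per Mb in the chromosome 12 cluster and 1.08 to 9.71 in the chromosome 17 cluster. The replicate 1 list holds more peaks than the others, and the cause of the differences between the lists was not tested. KRT79 had no peak with either list alone, since the replicate peaks lie nearer to KRT78. No paired analysis was possible because the replicates belong to 1 group and no result comes from a test.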

Other observations

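Other genes in and beside the keratin clusters had few peaks. IGFBP6, which encodes a binding protein of insulin-like growth factors and lies beyond KRT18 on chromosome 12, had a shared peak inside its body at 53098922 to 53099557, with folds of 3.73 in replicate 1 and 3.70 in replicate 2 and a −log10 q of 2.12 and 1.76. Among the keratin-associated protein genes nested in the chromosome 17 cluster, KRTAP2-3 and KRTAP2-4 had 1 peak each in replicate 1 alone, with folds of 3.88 and 3.63. EIF1, a translation initiation factor gene beyond KRT17, had 1 peak in replicate 1 alone, 21.9 kb from its body, with a fold of 4.10. These genes were named after their values were seen.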
